A study of Mus musculus with 50 samples.

Results

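RNA levels were compared between mouse embryonic stem cells that lack all 3 Ythdf genes and wild-type cells of the same line at 0 h of a transcription-block experiment. Members were taken from the labels: the 4 Triple_KO libraries (9d and 9e of replicate A, 10d and 10e of replicate B) and the 4 WT libraries (1d and 1e of replicate A, 2f and 2g of replicate B), which are 8 of the 50 libraries of the series. All cells were of the KH2 line, an embryonic stem cell line with a C57BL/6 x 129/Sv background. Triple_KO cells had the genotype Ythdf1-/-Ythdf2-/-Ythdf3-/-, and WT cells carried no knockout. Cells of both genotypes were kept in serum with LIF, a cytokine that holds stem cells undifferentiated. They stood on gelatin for 48 h, and 5 µM actinomycin D was then added, so that the 0 h samples show steady-state levels. Whether a genotype is 1 clone, and whether replicates A and B were separate cultures, is not given in the sources used here, so that p-values measure only the spread between these samples, which may be technical. The other 42 libraries hold later times and the single knockouts Ythdf1_KO, Ythdf2_KO and Ythdf3_KO.

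N6-methyladenosine (m6A) is the most common internal modification of mRNA. It is written in the nucleus by the Mettl3 and Mettl14 complex and is enriched in long exons and near stop codons. Ythdf1, Ythdf2 and Ythdf3 are cytoplasmic proteins whose YTH domain binds m6A. Ythdf2 is best known for shortening the life of methylated mRNA by recruiting the CCR4-NOT deadenylase. In mouse embryonic stem cells, m6A on mRNA of pluripotency factors is known as a condition for leaving the naive state.

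The libraries were 3′ end poly(A) RNA-seq, in which a transcript gives reads near its 3′ end, so that no correction for length is needed. Values are given in FPM, in which the read count of a gene is divided by the library total (RPM is another name for it). Library totals were 1630470 to 2076140 reads in Triple_KO, against 1183310 to 1698720 in WT, and 12914 to 13275 genes in Triple_KO, against 11906 to 12553 in WT, had at least 1 read. The genes listed held 44.3 ± 0.72% of the reads in Triple_KO and 43.3 ± 0.65% in WT (SD, 4 libraries each), a difference of 1.06 percentage points (exact permutation test over libraries, two-sided, p = 0.0571, where 0.0286 is the smallest possible, and p = 0.333 over replicate means, the smallest possible with 2 against 2, since duplicates are not independent). The part of depth in the results was not tested. Replicates A and B of a genotype were as alike as duplicate libraries of 1 replicate: chi-square per degree of freedom over genes was 1.33 to 1.52 between replicates and 1.35 to 1.47 between duplicates. Of 10 stem cell markers, 9 had at least 32.1 FPM in all 8 libraries, among them Pou5f1, Zfp42 and Sox2. Sox2, a core pluripotency factor, had 121, 136, 126 and 132 FPM in the Triple_KO libraries, against 128, 126, 136 and 126 FPM in the WT libraries. Zfp42, a naive marker, averaged 113 ± 8.77 FPM in Triple_KO and 114 ± 12.4 FPM in WT (SD, n = 4 libraries each). Nanog was listed at 0 to 3.38 FPM in the 8 libraries, below the level at which genes were tested.

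The targeted genes kept reads in every library. Ythdf2 had 71.8, 93.0, 82.6 and 97.3 FPM in the Triple_KO libraries, against 58.6, 53.2, 53.6 and 40.5 FPM in the WT libraries, and all 4 Triple_KO libraries were above all 4 WT libraries. Its log2 change was 0.73 ± 0.12 (SE, limma; n = 2 replicates; adjusted p = 1.72e-07). Ythdf1 had 41.1, 41.5, 48.0 and 39.5 FPM in the Triple_KO libraries, against 59.2, 50.7, 67.7 and 51.0 FPM in the WT libraries, with the groups apart in the other direction and a log2 change of -0.41 ± 0.13 (adjusted p = 0.00923). That call was lost without replicate A of Triple_KO (-0.37) and without replicate B of WT (-0.36). Ythdf3 had 14.7, 20.49, 23.8 and 27.0 FPM in the Triple_KO libraries, against 13.6, 21.97, 33.0 and 24.5 FPM in the WT libraries. Its groups overlapped, and its log2 change was -0.077 ± 0.19 (adjusted p = 0.821). In the single knockouts of the same study, Ythdf1 averaged 56.9 ± 5.92 FPM in Ythdf1_KO, Ythdf2 averaged 33.1 ± 4.202 FPM in Ythdf2_KO, and Ythdf3 averaged 23.8 ± 3.59 FPM in Ythdf3_KO (SD, n = 4 libraries each). The 3′ reads can lie outside the edited part of each gene, which is not given in the sources used here, so these levels check neither the labels nor the loss of protein. The genes lie at chr2:180904377-180920936, chr4:132184916-132212256 and chr3:16183148-16217037 of mm10.

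**Figure D1:**
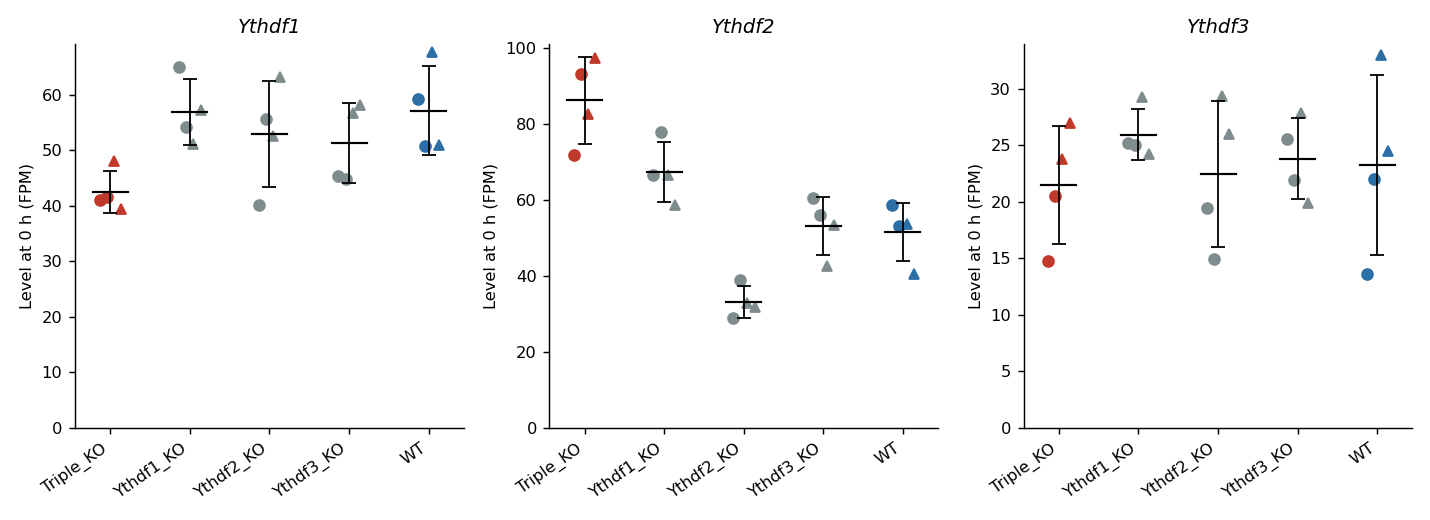
Level of Ythdf1, Ythdf2 and Ythdf3 in FPM (y axis) in each library at 0 h, by genotype (x axis). Circles are replicate A, triangles replicate B, and bars the mean ± SD over 4 libraries. Ythdf2 has its highest mean in Triple_KO, where its libraries span 71.8 to 97.3 FPM, against 40.5 to 58.6 FPM in WT.

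Of 8697 genes tested, 1906 passed an adjusted p of 0.05 (21.9%): 1241 were higher in Triple_KO (14.3%) and 665 were lower (7.65%). Most changes were small. The median log2 change was 0.67 among genes called higher and -0.53 among genes called lower, and 679 called genes moved by less than 0.5. Changes of at least 1 numbered 244 higher and 109 lower, and changes of at least 2 numbered 22 higher and 11 lower. The median over all genes tested was 0.07. Replicate means of the genotypes did not overlap in 5029 genes (57.8%), in either direction, which is the background for statements on overlap between replicates. The share of genes with all libraries of the genotypes apart was not counted, so statements on single libraries have no such background. Values are relative to the library total, and the scaling set the balance of directions: 65.1% of calls were higher as deposited, 52.9% (971 higher, 865 lower) with TMM scaling and 45.9% (850 higher, 1003 lower) with each library's median as its scale. On reads recovered from the FPM, edgeR called 1815 genes, 51.5% of them higher. Leaving out replicate A or B of Triple_KO gave 1129 and 1166 calls. Calls became more common with level: among 5 equal groups by level, the highest had 22.9% higher and 17.2% lower genes, and the lowest had 8.51% higher and 3.56% lower. Further, 236 of the tested genes would not have passed the level filter without the Triple_KO means, and 65 of those were called higher. Without the WT means 137 would not have passed it, and 11 of those were called lower. A gene that needed 1 mean of each genotype counts in both groups.

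**Figure D2:**
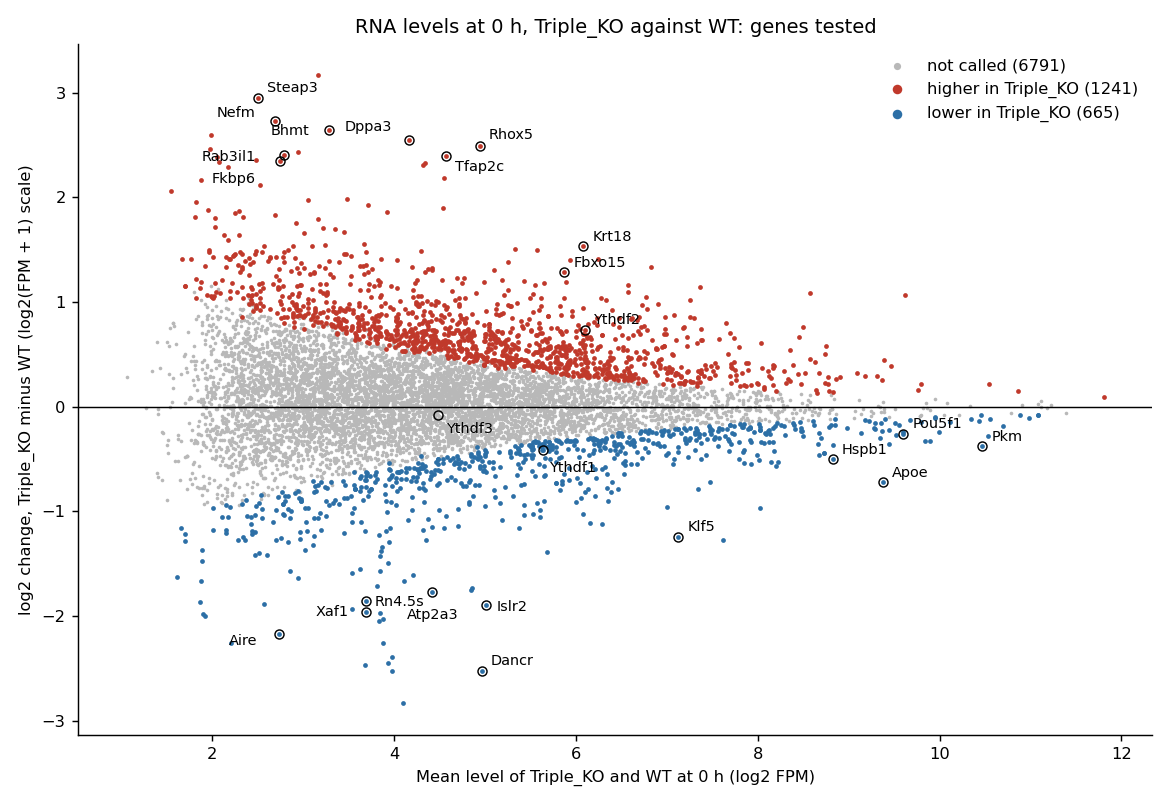
Each dot is 1 of 8697 genes, with its mean level over both genotypes at 0 h (x axis, log2 FPM) and its log2 change, Triple_KO minus WT (y axis, on the log2(FPM + 1) scale). The 1241 genes called higher are red and the 665 called lower are blue, and circled genes are named in the text. Changes above 2 are found at low and middle levels.

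The 15 largest rises and falls below are of genes that reached 10 FPM. Gene models without a name, microRNA and small nucleolar RNA genes and pseudogenes were left out, 3 among the rises and 11 among the falls. The rises included several genes that are known from the germ line, the preimplantation embryo and imprinted regions. Dppa3 (Stella), a maternal factor that guards DNA methylation in the zygote, had 28.2, 33.8, 35.1 and 27.0 FPM in the Triple_KO libraries, against 8.63, 1.69, 4.71 and 4.89 FPM in the WT libraries. Rhox5, an X-linked homeobox gene of reproductive tissues, had 52.1, 52.0, 49.7 and 55.4 FPM in the Triple_KO libraries, against 14.8, 5.92, 5.89 and 9.79 FPM in the WT libraries. Tfap2c, a transcription factor of germ cells and trophectoderm, had 49.7, 42.1, 30.8 and 39.0 FPM in the Triple_KO libraries, against 12.3, 5.07, 5.89 and 5.59 FPM in the WT libraries. In all 3 genes the lowest Triple_KO library was well above the highest WT library. Their log2 changes were 2.55 ± 0.25 (SE; limma, adjusted p = 2.69e-19), 2.49 ± 0.22 (adjusted p = 3.98e-22) and 2.39 ± 0.23 (adjusted p = 8.00e-20). Igf2, a growth factor made from the paternal allele, had 36.8, 33.8, 32.4 and 32.3 FPM in the Triple_KO libraries, against 3.70, 7.61, 5.89 and 7.69 FPM in the WT libraries, a change of 2.31 ± 0.22 (adjusted p = 7.52e-20). Fkbp6, a protein of the FK506-binding family needed for male meiosis, had 9.81, 13.3, 13.5 and 11.1 FPM in the Triple_KO libraries, against 1.23, 1.69, 1.18 and 2.10 FPM in the WT libraries and changed by 2.35 ± 0.46 (adjusted p = 1.25e-05). Crxos, a homeobox gene of early embryos and stem cells, and Pramel6, a PRAME-family gene of the preimplantation embryo, both changed by 1.98: Crxos had 12.5 to 22.7 FPM in Triple_KO and 2.10 to 5.92 FPM in WT, and Pramel6 had 13.5 to 14.0 FPM in Triple_KO and 1.40 to 3.70 FPM in WT.

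Other large rises came from metabolism and structure. Steap3, a reductase that releases iron from endosomes, had 10.4, 12.2, 8.64 and 11.6 FPM in the Triple_KO libraries, against 0, 0.845, 1.77 and 0 FPM in the WT libraries. Its log2 change of 2.95 ± 0.46 (limma, adjusted p = 2.79e-08) rests on WT libraries with 0 to 3 reads and shrank to 1.48 when 5 FPM in place of 1 was added before taking logs. Bhmt, which makes methionine from homocysteine with betaine, had 15.9, 15.5, 23.8 and 14.4 FPM in the Triple_KO libraries, against 0.617, 2.54, 2.94 and 2.10 FPM in the WT libraries and changed by 2.65 ± 0.40 (adjusted p = 5.10e-09). Fbp2, a fructose-bisphosphatase of gluconeogenesis, had 15.9, 23.8, 19.98 and 26.0 FPM in the Triple_KO libraries, against 6.17, 4.22, 4.12 and 4.89 FPM in the WT libraries. Sord, which oxidises sorbitol to fructose, had 26.4, 22.1, 24.8 and 22.2 FPM in the Triple_KO libraries, against 3.70, 3.38, 11.2 and 7.69 FPM in the WT libraries. Fbp2 changed by 1.93 ± 0.29 and Sord by 1.86 ± 0.31, with no overlap between the libraries of the groups in either. Nefm, a neurofilament chain, Rab3il1, an exchange factor for Rab GTPases, and Tmem37, a membrane protein related to calcium channel subunits, changed by 2.73 ± 0.47, 2.40 ± 0.41 and 2.33 ± 0.23. Tmem37 had the highest level of the 3, with 30.1, 39.9, 31.3 and 36.1 FPM in the Triple_KO libraries, against 4.32, 5.92, 7.06 and 6.99 FPM in the WT libraries. Klhl13, an X-linked adaptor of the Cul3 ubiquitin ligase, had 31.9 to 41.7 FPM in the Triple_KO libraries, against 4.22 to 16.1 FPM in the WT libraries, a change of 1.90 ± 0.21 (adjusted p = 9.83e-16). Bhmt, Fkbp6, Nefm, Pramel6, Rab3il1 and Steap3 passed the level filter only through Triple_KO, so that they had to be higher there. With 5 FPM added, Nefm gave 1.45, Rab3il1 1.35, Bhmt 1.66, Fkbp6 1.37 and Pramel6 1.26. Among these 15 genes and the 15 largest falls, all kept their call when any 1 replicate was left out. A test of all listed genes with no level filter ended 5 of the 30 calls: Nefm, Rab3il1, Pramel6, Sord and Kbtbd11.

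Among the falls was Dancr, a long noncoding RNA that hosts a small nucleolar RNA. It had 6.75, 6.64, 10.8 and 10.6 FPM in the Triple_KO libraries, against 59.2, 47.3, 59.5 and 48.9 FPM in the WT libraries, a log2 change of -2.52 ± 0.18 (limma, adjusted p = 3.34e-32). Every WT library held over 4 times the level of any Triple_KO library. Several falls were of membrane and signalling genes. Islr2, a membrane protein with leucine-rich repeats, had 13.5, 13.8, 12.96 and 11.6 FPM in the Triple_KO libraries, against 53.6, 60.9, 41.2 and 49.6 FPM in the WT libraries and changed by -1.90 ± 0.18 (adjusted p = 7.14e-21). Gpa33, a surface glycoprotein known from intestinal epithelium, had 11.7, 12.7, 18.9 and 8.67 FPM in the Triple_KO libraries, against 43.2, 45.6, 44.1 and 44.7 FPM in the WT libraries, a change of -1.75 ± 0.16 (adjusted p = 2.13e-20). Atp2a3, a calcium pump of the endoplasmic reticulum, had 12.9, 9.41, 6.48 and 8.19 FPM in the Triple_KO libraries, against 31.4, 28.7, 30.6 and 43.3 FPM in the WT libraries. Septin1, a cytoskeletal GTPase, had 15.3, 9.41, 12.96 and 14.4 FPM in the Triple_KO libraries, against 52.4, 42.2, 41.2 and 44.7 FPM in the WT libraries. The libraries of the groups did not overlap for either gene, and the changes were -1.77 ± 0.19 and -1.73 ± 0.16. Socs2, a feedback inhibitor of cytokine signalling, had 6.75 to 10.6 FPM in the Triple_KO libraries, against 21.7 to 35.9 FPM in the WT libraries (change -1.61 ± 0.21), and Irak3, an inhibitor of Toll-like receptor signalling, had 5.94 to 7.71 FPM in the Triple_KO libraries, against 16.03 to 28.7 FPM in the WT libraries (change -1.57 ± 0.26).

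Aire, which drives expression of tissue antigens in the thymus, had 1.84, 1.66, 1.62 and 1.93 FPM in the Triple_KO libraries, against 11.7, 12.7, 13.5 and 8.39 FPM in the WT libraries. Its change was -2.17 ± 0.35 (limma, adjusted p = 4.44e-08), and -1.28 with 5 FPM added. Tcf15, a basic helix-loop-helix factor of early differentiation, had 6.75, 2.77, 7.02 and 4.82 FPM in the Triple_KO libraries, against 22.2, 21.1, 10.6 and 17.5 FPM in the WT libraries, a change of -1.58 ± 0.26 (adjusted p = 1.41e-07). Xaf1, a binding partner of the apoptosis inhibitor XIAP, with 2.77 to 6.13 FPM in Triple_KO and 17.8 to 22.4 FPM in WT, changed by -1.86 ± 0.24, and Kbtbd11, of the Kelch family, by -1.71 ± 0.27. Rpph1 and Rn4.5s, both small RNAs, are described with the noncoding RNAs. Tyms, thymidylate synthase, had 1.62 to 3.88 FPM in the Triple_KO libraries, against 9.09 to 17.8 FPM in the WT libraries and changed by -1.57 ± 0.33 (adjusted p = 6.90e-05), while the pseudogene Tyms-ps moved the other way, with 14.9 to 24.9 FPM in the Triple_KO libraries, against 10.0 to 16.8 FPM in the WT libraries, a change of 0.57 ± 0.22 (adjusted p = 0.0406). Reads of the gene and of its near-identical copy could be split by the counting, so the direction of Tyms is uncertain. Pnp2, a purine nucleoside phosphorylase, changed by -1.55 ± 0.27 (adjusted p = 9.99e-07), whereas its neighbour and paralog Pnp changed by -0.26 ± 0.22 and did not pass the test.

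**Figure D3:**
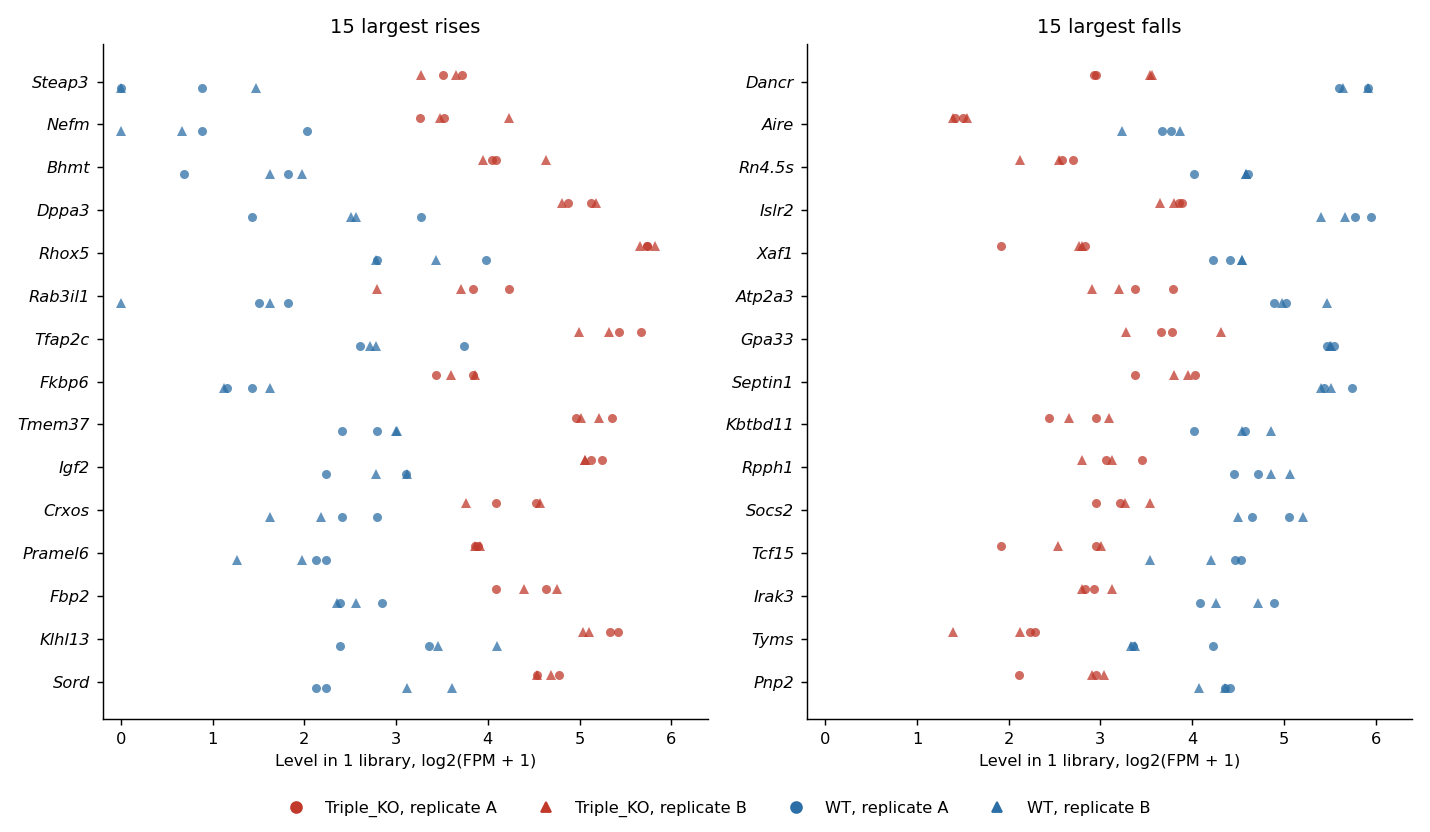
Level in each library, log2(FPM + 1) (x axis), of the 15 named genes with the largest rises (left) and the 15 with the largest falls (right), from the largest change at the top. Triple_KO libraries are red and drawn above the WT libraries, which are blue; circles are replicate A and triangles replicate B. Within each gene the 4 Triple_KO libraries lie on 1 side of the 4 WT libraries.

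Markers of other cell types were examined because they can move with a genotype. Fibroblast markers, which in such cultures could come from feeder cells or from differentiating cells, rose in 12 of 23 members tested and fell in none (52.2% called), with a median log2 change of 0.60 against 0.07 over all genes tested. Summed over all 34 listed markers, they held 1098 to 1152 FPM in the Triple_KO libraries, against 761 to 851 FPM in the WT libraries. The members called with the smallest p were Acta2, smooth muscle actin, with 126, 125, 142 and 130.5 FPM in the Triple_KO libraries, against 80.2, 66.8, 77.7 and 68.5 FPM in the WT libraries, Tagln, an actin-binding protein, and Col1a1, the main chain of type I collagen. Tagln changed by 0.84 ± 0.12 and Col1a1, with 32.3 to 44.2 FPM in Triple_KO and 10.6 to 21.7 FPM in WT, by 1.23 ± 0.19 (limma, adjusted p = 2.54e-08). As context, Col1a2, Thy1, Lox and Timp3 were also called higher. Their means were 15.1, 18.9, 32.1 and 22.7 FPM in Triple_KO, against 7.58, 9.76, 20.7 and 9.95 FPM in WT. Of the tested members, 11 were not called. With DESeq2 or with no level filter 6 were called higher, and in a fit on all times 8. Other fibroblast markers were near 0: Lum was listed at 0 in all 8 libraries and Dcn at 0 in 7 of 8. Col3a1 had 0.963 to 4.32 FPM in Triple_KO and 0 to 0.699 FPM in WT, and Pdgfrb had 0.482 to 3.07 FPM in Triple_KO and 1.18 to 4.22 FPM in WT. Without 1 replicate, 8 to 11 of the list were called higher. In bulk RNA, more cells of a type and more RNA per cell cannot be told apart, and the part of these markers in the results was not tested. Only 1 of 14 blood and endothelial markers in the files reached the tested level: Pecam1, an adhesion molecule that stem cells also express, had 14.1 to 26.0 FPM in Triple_KO and 10.99 to 22.2 FPM in WT and a change of 0.044 ± 0.19, which did not pass the test and whose sign depended on the scaling.

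Of 12 members of the endoderm list tested, 3 rose and 6 fell (against 21.9% of all genes called), with a median of -0.35. Krt18 and Krt8, the keratin pair of simple epithelia, rose: Krt18 had 107, 99.7, 103 and 94.9 FPM in the Triple_KO libraries, against 35.8, 32.1, 30.6 and 39.1 FPM in the WT libraries, a change of 1.53 ± 0.13 (limma, adjusted p = 4.91e-25), and Krt8 had 139.8, 161, 132 and 146 FPM in the Triple_KO libraries, against 73.4, 69.3, 81.8 and 76.9 FPM in the WT libraries, a change of 0.93 ± 0.10. Serpinh1, a collagen chaperone that is not restricted to endoderm, changed by 0.55 ± 0.092. Apoe, a lipid carrier, had 499, 478, 522 and 509.6 FPM in the Triple_KO libraries, against 819, 785, 866 and 848 FPM in the WT libraries, a change of -0.72 ± 0.040 (adjusted p = 1.55e-46). Lama1, a laminin chain, changed by -0.92 ± 0.16, and Epcam, an adhesion molecule shared by stem cells and epithelia, by -0.77 ± 0.14. The defining endoderm factors Sox17, Gata6 and Gata4 had at most 3.08 FPM in all 8 libraries, and Sox7 was listed at 0 in every Triple_KO library. On the list of mesoderm and neuroectoderm, 6 of 26 genes were tested. Vim, an intermediate filament protein, rose by 0.46 ± 0.10, with 111 to 124 FPM in the Triple_KO libraries, against 75.2 to 99.5 FPM in the WT libraries. Nes rose by 0.89 ± 0.33 and Stmn3 fell by 0.68 ± 0.25, both with overlapping libraries. These last 2 calls were lost without replicate A or B of Triple_KO, without replicate B of WT and with DESeq2.

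**Figure D4:**
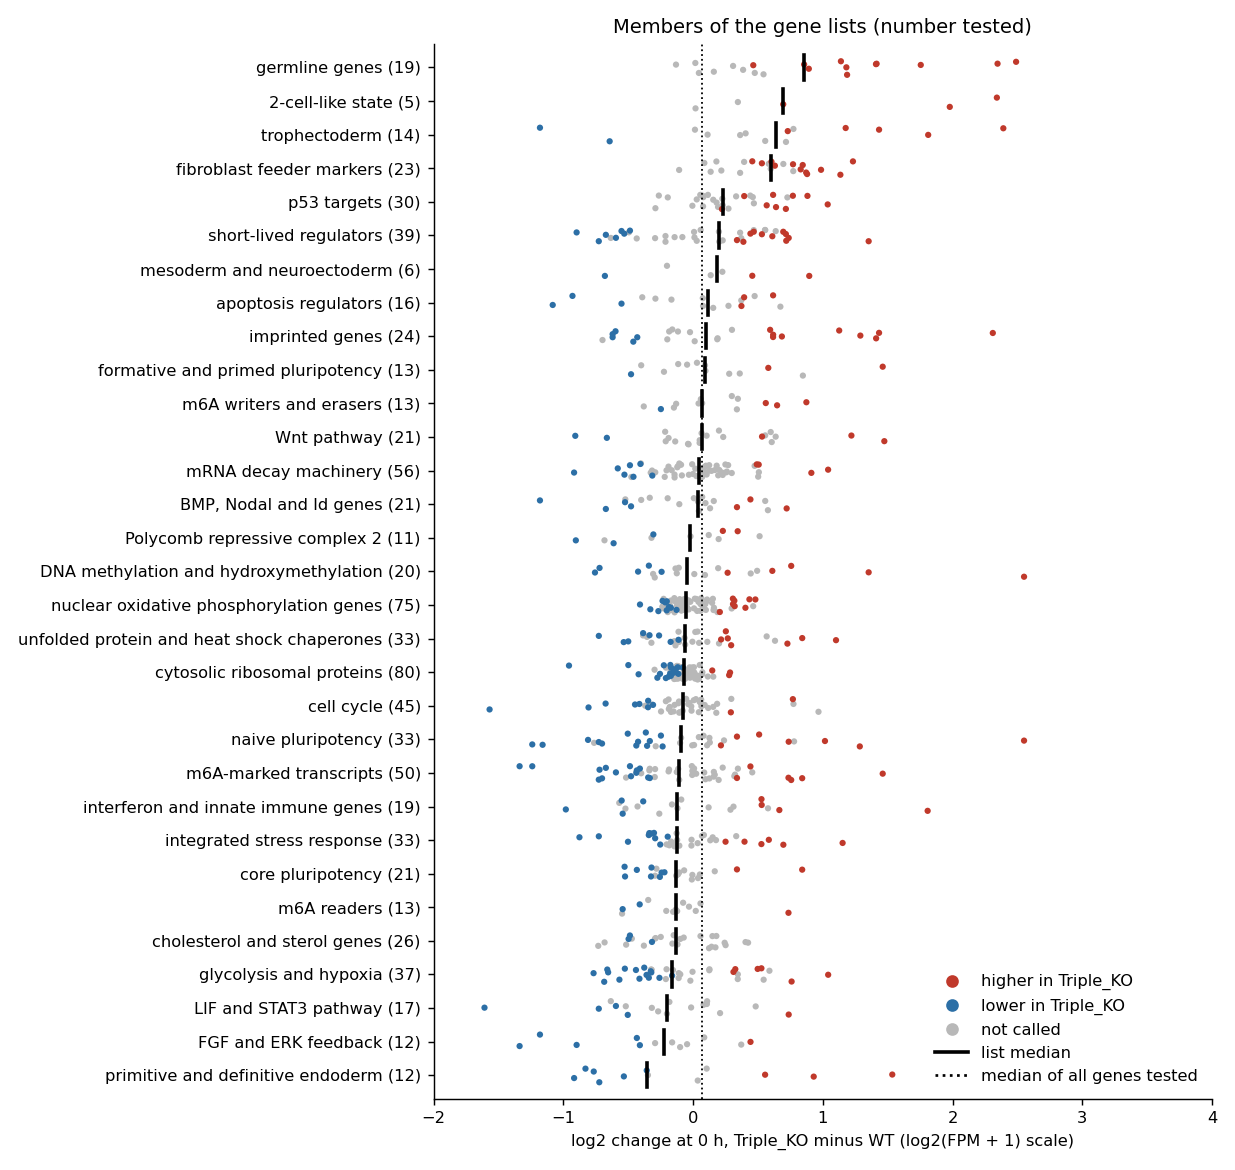
log2 change at 0 h, Triple_KO minus WT (x axis), of every tested member of 31 gene lists (y axis, number tested in brackets; the list of blood markers, with 1 tested, is left out), ordered by the list median, a black bar. Red members were called higher, blue called lower and grey not called, and the dotted line is the median of all genes tested, 0.07. Germline genes have the highest median, 0.86, and the endoderm list the lowest, -0.35.

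Pluripotency genes moved in both directions, and more of them fell. Of the naive factors, 7 of 33 tested rose and 13 fell (60.6% called; median -0.09). Klf5, a Krüppel-like factor of self-renewal, had 85.2, 79.7, 84.2 and 81.9 FPM in the Triple_KO libraries, against 197, 194, 197 and 198 FPM in the WT libraries. The libraries of the genotypes were far apart, and its change was -1.24 ± 0.083 (limma, adjusted p = 4.76e-35). Dppa5a, a stem cell RNA-binding protein, had 584 to 642 FPM in the Triple_KO libraries, against 751 to 804 FPM in the WT libraries, and Manba, a lysosomal mannosidase used as a naive marker, had 19.8 to 28.2 FPM in the Triple_KO libraries, against 47.3 to 77.6 FPM in the WT libraries; they changed by -0.35 ± 0.039 and -1.16 ± 0.14. Fbxo15, an F-box protein used as a reporter of pluripotency, rose: it had 79.7, 78.6, 83.7 and 92.5 FPM in the Triple_KO libraries, against 35.8, 31.3, 33.5 and 34.2 FPM in the WT libraries, a change of 1.28 ± 0.11 (adjusted p = 1.84e-22). Rex2 changed by 1.02 ± 0.17, and the largest rise on the list was that of Dppa3, given above. Esrrb, an orphan nuclear receptor of the naive network, had 182 to 207 FPM in the Triple_KO libraries, against 221 to 265 FPM in the WT libraries and fell by 0.33 ± 0.065. Klf4, a related factor, had a log2 difference of 0.0074 and did not pass the test, while Klf2 had 318 to 374 FPM in the Triple_KO libraries, against 243 to 307 FPM in the WT libraries and rose by 0.34 ± 0.058.

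On the list of core pluripotency genes, 2 of 21 rose and 8 fell (47.6% called; median -0.13), and 5 fell without replicate A of Triple_KO. Pou5f1 (Oct4), the central factor of pluripotency, had 710.2, 685, 712 and 719.6 FPM in the Triple_KO libraries, against 884, 902, 786 and 809.5 FPM in the WT libraries. The groups did not overlap, and the change was -0.26 ± 0.039 (limma, adjusted p = 7.70e-09). Tdgf1, the Nodal co-receptor, had 237, 231, 227 and 230.2 FPM in the Triple_KO libraries, against 323, 358, 335 and 318 FPM in the WT libraries, a change of -0.52 ± 0.054 (adjusted p = 1.67e-17). Trim28, a corepressor that silences retroelements, changed by -0.24 ± 0.038. Mycn, a Myc-family factor, rose with 63.8, 50.9, 48.0 and 68.4 FPM in the Triple_KO libraries, against 24.1, 32.1, 37.1 and 34.2 FPM in the WT libraries, a change of 0.84 ± 0.14 (adjusted p = 1.57e-07), and Gdf3, a ligand of the TGF-beta family, rose by 0.34 ± 0.078. Formative genes had 2 rises and 1 fall among 13 tested (23.1% called, near the 21.9% of all genes). Otx2, a homeobox factor of the transition out of the naive state, had 5.54 to 10.3 FPM in the Triple_KO libraries, against 1.69 to 4.19 FPM in the WT libraries and changed by 1.46 ± 0.36 (0.85 with 5 FPM added). Tead2, a Hippo pathway factor, rose by 0.58 ± 0.12, and Lefty2, a Nodal antagonist, had 118 to 130 FPM in the Triple_KO libraries, against 161 to 194 FPM in the WT libraries and a change of -0.48 ± 0.075. With median scaling 4 naive genes rose and 15 fell, and 2 core genes rose and 9 fell.

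Germline genes rose in 11 of 19 tested members (57.9%, against 14.3% of all genes called higher) and none fell, and the median was 0.86. The tested members are 19 of 42 listed in the files, and 3 passed the level filter only through Triple_KO, of which 2, Fkbp6 and Piwil2, were called higher. Besides Rhox5 and Fkbp6, the smallest p values belonged to Rpl10l, a testis-specific ribosomal protein, with 46.0, 32.7, 40.5 and 31.3 FPM in the Triple_KO libraries, against 17.9, 16.9, 16.5 and 12.6 FPM in the WT libraries, and Tdrd12, a tudor protein of the piRNA pathway, with 31.9, 25.5, 25.9 and 22.2 FPM in the Triple_KO libraries, against 7.40, 15.2, 11.2 and 11.2 FPM in the WT libraries. They changed by 1.18 ± 0.19 (limma, adjusted p = 7.75e-08) and 1.19 ± 0.19 (adjusted p = 9.67e-08), with libraries apart in both. Ddx4 (Vasa), the germ cell helicase, had 10.3 to 16.4 FPM in the Triple_KO libraries, against 1.40 to 4.32 FPM in the WT libraries. Germline genes called higher numbered 6 without replicate A of Triple_KO, 7 without replicate B, 8 and 9 without replicate A and B of WT, 9 with either other scaling and 5 with DESeq2, with no filter or on all times. On the list of genes of the 2-cell-like state, a rare state of stem cell cultures that resembles the 2-cell embryo, 5 of 22 genes in the files were tested, and 3 rose: Eif1a, a translation initiation factor, Pramel6 and Pramel7. Pramel6 and Pramel7 passed the level filter only through Triple_KO and so had to be higher there. Eif1a had 149.7, 167, 146 and 164 FPM in the Triple_KO libraries, against 88.2, 112, 105 and 83.2 FPM in the WT libraries and changed by 0.69 ± 0.090 (adjusted p = 9.34e-12). Pramel7 had 6.26 to 9.18 FPM in the Triple_KO libraries, against 0 to 1.23 FPM in the WT libraries, a change of 2.34 ± 0.48, 1.13 with 5 FPM added. The defining genes of that state stayed near the level of 1 to 3 reads: Zscan4c had 0 to 1.84 FPM in Triple_KO and 0 to 0.589 FPM in WT, Zscan4d had at most 1.66 FPM in Triple_KO and was listed at 0 in WT, and Duxf3 was listed at 0 in all 8 libraries.

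Of 14 trophectoderm genes tested, 5 rose and 2 fell (against 14.3% and 7.65% of all genes), with a median of 0.64. Of the rises, Gata2 and Ascl2 passed the level filter only through Triple_KO, and 3 rose without replicate A of WT, with DESeq2, with no filter or on all times. Next to Tfap2c, Gata2, a zinc finger factor of trophoblast and blood, had 7.02 to 8.86 FPM in the Triple_KO libraries, against 0 to 4.12 FPM in the WT libraries and rose by 1.81 ± 0.41; without replicate A of WT the change was 1.19 and was not called. Cldn4, a tight junction protein, had 149, 127, 123 and 150.3 FPM in the Triple_KO libraries, against 96.8, 75.2, 78.9 and 79.0 FPM in the WT libraries, a change of 0.73 ± 0.092 (limma, adjusted p = 3.21e-12). Lgals3, a galectin, and Bmp4, a signalling ligand, fell: Lgals3 had 62.1 to 82.5 FPM in the Triple_KO libraries, against 101 to 128 FPM in the WT libraries and changed by -0.64 ± 0.10, and Bmp4 had 8.67 to 18.3 FPM in the Triple_KO libraries, against 21.7 to 37.2 FPM in the WT libraries and changed by -1.18 ± 0.21. Cdx2, the defining factor of the lineage, had 2.89 to 5.94 FPM in Triple_KO and 0.589 to 1.40 FPM in WT, below the tested level, and Elf5 was listed at 0. The fibroblast markers rose in the same libraries, as given above, and their part in the germline and trophectoderm values was not tested.

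Genes known as imprinted, that is, read from 1 parental allele in at least some tissues, rose in 9 of 24 tested and fell in 5. That was 58.3% called, against 21.9% of all genes, with a median of 0.10. Of the rises, Ascl2 passed the level filter only through Triple_KO, so that it had to be higher there. With DESeq2 5 rose and 1 fell, on all times 4 rose and 1 fell, and with no filter 6 rose and 2 fell. Without replicate A of Triple_KO 2 fell, and without replicate B of Triple_KO or of WT 6 rose and 2 fell. After Igf2, the rises with the smallest p were Commd1, an adaptor of copper and receptor traffic, with 84.6, 88.6, 71.8 and 84.3 FPM in the Triple_KO libraries, against 46.2, 56.6, 51.2 and 63.6 FPM in the WT libraries, and Cdkn1c (p57), an inhibitor of cyclin-dependent kinases, with 15.9, 21.04, 22.1 and 26.5 FPM in the Triple_KO libraries, against 5.55, 5.92, 9.42 and 9.09 FPM in the WT libraries. They changed by 0.59 ± 0.11 (limma, adjusted p = 1.59e-06) and 1.41 ± 0.26 (adjusted p = 2.28e-06). Cd81, a tetraspanin, had 182 to 206 FPM in the Triple_KO libraries, against 248 to 279 FPM in the WT libraries and a change of -0.43 ± 0.065. Grb10, an adaptor that inhibits insulin signalling, changed by -0.46 ± 0.14, and Ddc, which makes dopamine and serotonin, by -0.60 ± 0.19; both calls were lost when either of 2 replicates was left out. The falls count Snrpn and Snurf, which share a transcript and had the same values, as 2 genes.

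Among genes of DNA methylation, 5 of 20 rose and 5 fell (against 21.9% of all genes called; median -0.05). Without replicate A of Triple_KO or of WT 3 rose, and without replicate B of Triple_KO 3 fell. Dnmt3l, the cofactor of de novo methylation, had 125, 140.1, 121 and 152 FPM in the Triple_KO libraries, against 238, 212, 231 and 206 FPM in the WT libraries, a change of -0.72 ± 0.079 (limma, adjusted p = 7.38e-16). Zfp57, which protects methylation at imprinted regions, had 264, 252, 254 and 218 FPM in the Triple_KO libraries, against 331, 316, 369 and 310.4 FPM in the WT libraries, a change of -0.42 ± 0.059 (adjusted p = 2.17e-10). Both fell in every Triple_KO library relative to every WT library. Setdb1, a histone H3 lysine methyltransferase that works with Trim28, rose with 81.6, 57.0, 61.0 and 66.5 FPM in the Triple_KO libraries, against 25.9, 48.2, 47.1 and 37.8 FPM in the WT libraries, a change of 0.76 ± 0.13. Gadd45g, a stress-inducible protein linked to demethylation, had 14.9 to 21.6 FPM in the Triple_KO libraries, against 3.70 to 8.45 FPM in the WT libraries and a change of 1.35 ± 0.29. In Polycomb repressive complex 2, which methylates lysine on histone H3, 2 of 11 rose and 3 fell (45.5% called): Suz12, a core subunit, had 34.96 to 37.6 FPM in the Triple_KO libraries, against 50.7 to 58.9 FPM in the WT libraries and changed by -0.61 ± 0.13, Eed by -0.31 ± 0.089 and Rbbp4, whose values another gene shares, by -0.90 ± 0.32, while Rbbp7 rose by 0.34 ± 0.079 and Epop, an accessory subunit, by 0.23 ± 0.052. The calls of Eed, Rbbp4 and Epop were lost when 1 replicate was left out, and without replicate A of Triple_KO 1 of the 3 falls was left.

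Signalling targets of FGF and LIF were mostly lower where called. FGF and ERK feedback genes had 1 rise and 5 falls among 12 tested (against 21.9% of all genes called; median -0.23). Dusp6, the phosphatase that switches off ERK, had 9.81, 8.30, 7.02 and 6.26 FPM in the Triple_KO libraries, against 19.7, 16.9, 26.5 and 22.4 FPM in the WT libraries, a change of -1.34 ± 0.23 (limma, adjusted p = 2.76e-07). Ier2, an immediate-early gene, had 60.7, 57.6, 47.0 and 62.1 FPM in the Triple_KO libraries, against 97.4, 113, 104 and 110.4 FPM in the WT libraries, a change of -0.90 ± 0.10 (adjusted p = 4.35e-15). No Triple_KO library of these 2 genes reached the lowest WT library. The 1 rise, of the receptor Fgfr1 (0.44 ± 0.15), was lost without replicate A or B of Triple_KO or replicate A of WT, and under TMM and median scaling. On the list of LIF and STAT3 genes, 1 of 17 rose and 4 fell (29.4% called; median -0.20); 2 rose without replicate B of WT, and none rose when any other replicate was left out. After Socs2, Pim3, a serine/threonine kinase, had 54.6 to 61.5 FPM in the Triple_KO libraries, against 81.4 to 102 FPM in the WT libraries and changed by -0.59 ± 0.10, and Socs3, the feedback inhibitor of LIF signalling, had 12.9 to 21.1 FPM in the Triple_KO libraries, against 25.4 to 32.4 FPM in the WT libraries and changed by -0.73 ± 0.17, -0.41 and not called without replicate A of Triple_KO. Pim1 changed by 0.74 ± 0.26, a call lost in 3 of the 4 fits without a replicate.

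BMP, Nodal and Id genes had 3 rises and 4 falls among 21 tested (33.3% called), with a median of 0.04 that was -0.019 with TMM and -0.052 with median scaling. Id3, a BMP target, and Tgfbr1, a receptor, rose by 0.44 ± 0.15 and 0.72 ± 0.28, both calls lost under TMM scaling and without a Triple_KO replicate. The 4 falls were of Bmp4, Tdgf1 and Lefty2, given above, and of Id1. Id1, given as context, moved against Id3, with a change of -0.67 ± 0.20 (limma, adjusted p = 0.00708). Wnt pathway genes had 3 rises and 2 falls among 21 (23.8% called, near the 21.9% of all genes; median 0.07, and -0.025 with median scaling). Without replicate B of Triple_KO 1 rose, and with DESeq2, with no filter or on all times none rose. Axin2, the feedback target of Wnt signalling, had 6.75, 11.1, 7.02 and 15.4 FPM in the Triple_KO libraries, against 6.78, 0, 4.12 and 4.19 FPM in the WT libraries, with overlap between the groups, and changed by 1.47 ± 0.32 (0.81 with 5 FPM added). Sp5 and Cdx1, 2 further Wnt targets, changed by 1.22 ± 0.40 and 0.53 ± 0.20, each lost when 1 of several replicates was left out. Fzd5, a Wnt receptor, fell with 18.4 to 33.2 FPM in the Triple_KO libraries, against 33.3 to 53.1 FPM in the WT libraries, a change of -0.66 ± 0.15, and Notum, an enzyme that inactivates Wnt ligands, fell with 8.30 to 12.9 FPM in the Triple_KO libraries, against 16.1 to 24.5 FPM in the WT libraries, a change of -0.91 ± 0.21 (limma, adjusted p = 0.000318).

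Transcripts that are known to carry m6A in stem cells were described as 1 list. Of 50 tested, 6 rose and 14 fell (40.0% called; median -0.11 against 0.07 over all genes). Among them, Klf5, Dusp6, Dnmt3l, Lefty2 and Pim3 fell, and Ythdf2, Setdb1, Mycn, Klf2 and Otx2 rose, with the values given beside their other lists. With median scaling the list had 5 rises and 16 falls. The enzymes that write and erase m6A had 3 rises and 1 fall among 13 (30.8% called; median 0.07, and -0.021 with median scaling). Rbm15b, an adaptor of the writer complex, had 29.4, 32.1, 30.8 and 27.0 FPM in the Triple_KO libraries, against 18.5, 16.9, 12.4 and 16.1 FPM in the WT libraries, a change of 0.87 ± 0.19 (limma, adjusted p = 0.000103). Mettl16, a methyltransferase of U6 snRNA and Mat2a mRNA, had 35.6 to 50.6 FPM in the Triple_KO libraries, against 18.5 to 31.5 FPM in the WT libraries and rose by 0.65 ± 0.16. The demethylase Fto (0.56 ± 0.19) and Mettl5, which methylates ribosomal RNA (-0.25 ± 0.10), passed the test in the full data and lost it in 3 and 4 of the 4 fits without a replicate. On the list of m6A readers, 1 of 13 tested rose, Ythdf2, and 2 fell, Ythdf1 and Hnrnpa2b1 (23.1% called, near the 21.9% of all genes); 4 fell with TMM or median scaling, and 1 fell without replicate B of WT. Hnrnpa2b1, a nuclear RNA-binding protein, had 209, 184, 204 and 193 FPM in the Triple_KO libraries, against 310.2, 264, 281 and 298 FPM in the WT libraries, a change of -0.54 ± 0.063 (adjusted p = 4.44e-14).

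Of 56 tested genes of the mRNA decay machinery, 4 rose and 7 fell (19.6% called, near the 21.9% of all genes). Without replicate B of Triple_KO 2 rose and 4 fell, without replicate B of WT 2 fell, and with no filter or on all times 1 rose and none fell. Their median was 0.05, but -0.012 with TMM and -0.043 with median scaling. Exosc4, a subunit of the RNA exosome, had 75.4, 64.2, 96.6 and 91.0 FPM in the Triple_KO libraries, against 43.8, 45.6, 36.5 and 44.7 FPM in the WT libraries, a change of 0.91 ± 0.12 (limma, adjusted p = 5.93e-11). Pelo, which rescues stalled ribosomes, had 40.5, 34.9, 32.9 and 34.2 FPM in the Triple_KO libraries, against 17.9, 19.4, 14.7 and 15.4 FPM in the WT libraries, a change of 1.04 ± 0.20 (adjusted p = 4.78e-06). Pum2, a translational repressor, rose by 0.49 ± 0.16, a call lost without replicate B of Triple_KO (0.35) or replicate A of WT (0.41). Lsm2, of the decapping-activating ring, fell by 0.31 ± 0.077, and the call was lost without replicate B of Triple_KO (-0.25). Dcp2, the decapping enzyme, and Zfp36l1, which binds AU-rich elements, fell by 0.53 ± 0.14 and 0.49 ± 0.13, and both calls were lost without replicate B of WT (-0.36 and -0.38).

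Genes of glycolysis and hypoxia had 6 rises and 15 falls among 37 tested (56.8% called; median -0.16), and their sum was 5472 to 5729 FPM in the Triple_KO libraries, against 6505 to 6693 FPM in the WT libraries. Pkm, pyruvate kinase, had 1173, 1255, 1214 and 1293 FPM in the Triple_KO libraries, against 1632, 1580, 1565 and 1627 FPM in the WT libraries, a change of -0.38 ± 0.029 (limma, adjusted p = 2.17e-28). Ldha, lactate dehydrogenase A, had 228, 242, 248 and 234 FPM in the Triple_KO libraries, against 344, 362, 338 and 366 FPM in the WT libraries, a change of -0.57 ± 0.053 (adjusted p = 9.30e-21). Aldoa, an aldolase, had 759.6 to 854 FPM in the Triple_KO libraries, against 955 to 1067 FPM in the WT libraries and a change of -0.33 ± 0.035. The B subunit of lactate dehydrogenase went the other way: Ldhb had 99.4, 101, 103 and 117 FPM in the Triple_KO libraries, against 49.3, 49.0, 54.8 and 48.9 FPM in the WT libraries, a change of 1.04 ± 0.10 (adjusted p = 4.28e-18). Slc2a3, a glucose transporter, had 596 to 618 FPM in the Triple_KO libraries, against 453 to 509.8 FPM in the WT libraries and rose by 0.33 ± 0.046. Ddit4, an inhibitor of mTORC1, rose by 0.53 ± 0.14, a call lost without replicate A of Triple_KO or replicate B of WT. The 15 falls were 12 to 14 without 1 replicate and 16 to 17 under the other scalings. The 6 rises were 2 without replicate A of Triple_KO, 3 without replicate B of WT, 4 without either other replicate or under either other scaling, and 2 with DESeq2, with no filter or on all times.

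Cytosolic ribosomal proteins depended on the scaling. Of 80 tested, 3 rose and 19 fell as deposited (27.5% called; median -0.07), 3 rose and 40 fell with TMM scaling, and 1 rose and 49 fell with median scaling. Without replicate A or B of Triple_KO 11 fell, and without replicate B of WT 10 fell. Their sum was 41517 to 43301 FPM in the Triple_KO libraries, against 42473 to 46530 FPM in the WT libraries, which overlap. Rpl22l1, the paralog of Rpl22, was the member farthest from the rest, with 85.9, 92.5, 85.8 and 83.8 FPM in the Triple_KO libraries, against 151, 161, 181 and 189 FPM in the WT libraries, a change of -0.96 ± 0.079 (limma, adjusted p = 6.26e-25). Rpl24 and Rpl8 changed by -0.50 ± 0.068 and -0.28 ± 0.029, and Rpl29 and Rpl41 rose by 0.28 ± 0.074 and 0.15 ± 0.026, and Rpl41 was not called with median scaling. Rps27l, a p53 target related to Rps27, rose by 0.28 ± 0.077, a call lost without replicate A of Triple_KO or of WT. Ribosomal protein genes have many near-identical pseudogenes, so their reads are uncertain. Nuclear genes of oxidative phosphorylation had 8 rises and 10 falls among 75 (24.0% called, near the 21.9% of all genes), and 4 rises and 23 falls with median scaling. Without 1 replicate, 4 to 7 of them fell, and 5 rose without replicate B of Triple_KO. Uqcr10 and Uqcrfs1, subunits of complex III, rose by 0.32 ± 0.050 and 0.48 ± 0.093, and Ndufa2, of complex I, by 0.40 ± 0.074. Ndufa4, Cox4i1 and Atp5e fell by 0.41 ± 0.063, 0.21 ± 0.042 and 0.27 ± 0.056.

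Stress-linked genes moved both ways. Genes of the integrated stress response had 6 rises and 10 falls among 33 (48.5% called; median -0.12), with 6 falls without replicate A of Triple_KO, 5 with no filter and 4 on all times. Eif4ebp1, an inhibitor of cap-dependent translation, had 400.5, 364, 381 and 376 FPM in the Triple_KO libraries, against 284, 314, 257 and 303 FPM in the WT libraries, a change of 0.40 ± 0.054 (limma, adjusted p = 1.31e-10). Atf5 and Pck2 rose by 0.70 ± 0.11 and 0.58 ± 0.10. Slc7a3, a transporter of arginine, had 48.5, 42.6, 48.6 and 46.7 FPM in the Triple_KO libraries, against 93.1, 83.7, 81.8 and 86.7 FPM in the WT libraries, a change of -0.88 ± 0.10 (adjusted p = 2.21e-13), and Shmt2, of mitochondrial serine use, and Slc7a5, a leucine transporter, changed by -0.50 ± 0.078 and -0.29 ± 0.068. Chaperones had 7 rises and 8 falls among 33 (45.5% called; median -0.07), 3 rises and 8 falls with DESeq2, and 6 rises and 13 falls with median scaling. Hspa5, the main chaperone of the endoplasmic reticulum, had 684 to 751 FPM in the Triple_KO libraries, against 592 to 610.5 FPM in the WT libraries and changed by 0.25 ± 0.042, and its partner Hsp90b1 had 236 to 279.7 FPM in the Triple_KO libraries, against 311 to 341 FPM in the WT libraries and changed by -0.34 ± 0.057. Hsp90aa1 rose by 0.22 ± 0.037, and Bag3, a co-chaperone, rose by 1.10 ± 0.19. Hspb1, a small heat shock protein, had 358, 396, 362 and 389 FPM in the Triple_KO libraries, against 530.4, 518, 554 and 525 FPM in the WT libraries, a change of -0.50 ± 0.048 (adjusted p = 7.98e-20), and Hspa4 changed by -0.53 ± 0.066. Sterol genes had no rise and 3 falls among 26 (11.5% called). Acly, which makes cytosolic acetyl-CoA, changed by -0.50 ± 0.073, and Hmgcs1, an early enzyme of sterol synthesis, by -0.32 ± 0.083, which was not called without replicate B of WT.

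Targets of p53 rose in 9 of 30 tested (against 14.3% of all genes called higher), none fell, and the median was 0.23. Cdkn1a (p21), which stops the cell cycle, had 123, 134, 144 and 142 FPM in the Triple_KO libraries, against 69.7, 76.1, 81.2 and 90.9 FPM in the WT libraries, a change of 0.77 ± 0.10 (limma, adjusted p = 3.66e-12). Mdm2, the ubiquitin ligase that removes p53, had 139, 136, 149 and 134 FPM in the Triple_KO libraries, against 96.2, 73.5, 102 and 87.4 FPM in the WT libraries, a change of 0.64 ± 0.10 (adjusted p = 4.30e-09). Plk2, a polo-like kinase, had 59.8 to 82.8 FPM in the Triple_KO libraries, against 31.5 to 58.0 FPM in the WT libraries and a change of 0.71 ± 0.14. The summed level of the list was 1976 to 2027 FPM in the Triple_KO libraries, against 1609 to 1719 FPM in the WT libraries. With TMM or median scaling 6 members rose and none fell, with DESeq2 5, with no filter 4, on all times 2, and without 1 replicate 6 to 8. Cell cycle genes had 2 rises and 8 falls among 45 (22.2% called, near the 21.9% of all genes), and 1 rise and 14 falls with median scaling. Fewer fell without replicate A of Triple_KO, and fewer rose without replicate B of Triple_KO or A of WT. Ccnd3, a G1 cyclin, had 224 to 246 FPM in the Triple_KO libraries, against 279.6 to 333 FPM in the WT libraries and changed by -0.35 ± 0.058, and Mcm3, of the replication helicase, had 156 to 176 FPM in the Triple_KO libraries, against 193 to 208 FPM in the WT libraries and changed by -0.31 ± 0.070. Ccne1 rose by 0.29 ± 0.10, a call lost under both other scalings and in 3 of the 4 fits without a replicate.

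Apoptosis regulators had 3 rises and 3 falls among 16 (37.5% called). Bid, a BH3-only protein cut by caspases, had 14.7, 27.7, 29.7 and 22.2 FPM in the Triple_KO libraries, against 44.4, 54.1, 51.2 and 48.2 FPM in the WT libraries, a change of -1.08 ± 0.14 (limma, adjusted p = 4.57e-11). Mcl1, a short-lived survival factor, had 67.5 to 80.4 FPM in the Triple_KO libraries, against 101 to 125 FPM in the WT libraries and changed by -0.55 ± 0.10. Pmaip1 (Noxa), an inhibitor of Mcl1, rose by 0.62 ± 0.17, a call lost without replicate B of WT (0.45), and the calls of Bak1 (0.37), Bcl2l1 (0.39) and Casp9 (-0.93) each failed without 1 of several replicates. Short-lived regulators had 11 rises and 7 falls among 39 (46.2% called; median 0.20). The rises numbered 7, 6 and 7 without replicate A or B of Triple_KO or replicate A of WT, 7 with median scaling, 5 with DESeq2 and 2 with no filter; on all times 2 rose and 1 fell. Jund, an AP-1 subunit, had 65.6 to 77.1 FPM in the Triple_KO libraries, against 27.1 to 53.6 FPM in the WT libraries and rose by 0.69 ± 0.12, and Ccn2, a matrix protein, had 116 to 137 FPM in the Triple_KO libraries, against 64.3 to 106 FPM in the WT libraries and rose by 0.53 ± 0.10. Interferon and innate immune genes had 4 rises and 4 falls among 19 (42.1% called), with 2 rises without replicate A of Triple_KO or B of WT. Ifitm2 and Ifitm3, membrane proteins that block virus entry, fell by 0.55 ± 0.077 and 0.54 ± 0.089, and Irf1, an interferon-induced factor, had 11.6 to 23.2 FPM in the Triple_KO libraries, against 25.9 to 49.0 FPM in the WT libraries and changed by -0.98 ± 0.18. Oas1a, a sensor of double-stranded RNA, rose by 1.81 ± 0.39 with overlapping libraries, Bst2, a restriction factor, by 0.66 ± 0.18, lost without replicate A of Triple_KO, and Irf3 by 0.53 ± 0.18, lost under both other scalings.

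Counts were also made by the kind of RNA. Of 94 long noncoding RNAs tested, 9 rose and 25 fell (median -0.18), and of 8413 protein-coding genes, 1221 rose and 606 fell (median 0.07). Over all genes tested, 14.3% were called higher and 7.65% lower. Small nucleolar RNAs had no rise and 6 falls among 10 (median -1.24), against 7.65% of all genes called lower. Snora20 and Snora75, both called lower, and Snora31 and Snord99 passed the level filter only through WT. The filter thus largely set their direction. Rpph1, the RNA of the tRNA-processing enzyme RNase P, had 7.36, 9.97, 5.94 and 7.71 FPM in the Triple_KO libraries, against 20.97, 25.4, 32.4 and 28.0 FPM in the WT libraries, a change of -1.67 ± 0.22 (limma, adjusted p = 7.85e-11). Rn4.5s, a small cytoplasmic RNA, had 5.52, 4.98, 4.86 and 3.37 FPM in the Triple_KO libraries, against 23.4, 15.2, 23.0 and 23.1 FPM in the WT libraries, a change of -1.96 ± 0.24 (adjusted p = 3.87e-13). The libraries were of poly(A) RNA, and the share of small RNAs with a poly(A) tail was not measured. The values of small RNAs here thus need not follow their total levels. The following were chosen after their values were seen. Snora26 (chr5:74093530-74093650) lies within the span of Dancr (chr5:74093060-74094337) and had 3.68, 3.32, 4.86 and 5.30 FPM in the Triple_KO libraries, against 19.7, 19.4, 17.1 and 19.6 FPM in the WT libraries. Snora44 (chr4:132309953-132310069) lies within Snhg12 (chr4:132308678-132311024), which had 46.6, 47.6, 43.2 and 60.2 FPM in the Triple_KO libraries, against 69.7, 82.8, 84.8 and 79.7 FPM in the WT libraries. Reads of a small RNA and its host could not be told apart by the sources used here. Of 14 tested genes named Snhg, for snoRNA host gene, 8 fell and 1 rose, against 7.65% lower and 14.3% higher over all genes. Their median was -0.65. Snhg3 had 37.4 to 50.2 FPM in the Triple_KO libraries, against 78.3 to 88.9 FPM in the WT libraries. Snhg6, the rise, had 72.3 to 91.9 FPM in the Triple_KO libraries, against 46.5 to 58.0 FPM in the WT libraries. Neat1, the scaffold of paraspeckles, had 28.2, 29.3, 31.3 and 36.6 FPM in the Triple_KO libraries, against 74.6, 62.5, 59.5 and 67.1 FPM in the WT libraries, a change of -1.05 ± 0.13.

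Genes were also grouped by transcript structure, each time into 5 groups of equal size. Where exon junctions were sparsest (0 to 1.43 per kb of transcript), 21.5% of genes were higher and 6.45% lower in Triple_KO, and the median log2 change was 0.17. Where junctions were densest (5.14 to 15.7 per kb), 9.40% were higher and 7.96% lower, and the median was 0.02. The groups between them had 15.5%, 13.8% and 12.4% higher, in order of density. Among 1525 genes whose longest internal exon reached 400 nt, 16.5% were higher and 4.66% lower, against 14.1% and 7.80% of the other 6768. The motif GGACT, a common form of the m6A consensus, was counted on the sense strand of the transcript, and 92.0% of transcripts hold it at least once. In the group with most motifs per kb, 19.7% of genes were higher and 6.99% lower, and in the group with fewest, 12.6% and 8.80%. By length, 19.3% of the shortest group and 10.7% of the longest were higher, and 8.62% and 5.18% were lower. Level moved with structure: the median was 3.85 (log2 FPM) where junctions were sparsest and 4.65 where they were densest. By length, the median level was 4.99 in the shortest group and 3.69 in the longest. Calls became more common with level, as given above. These features are related among genes, and their separate parts were not tested. Structures came from GENCODE M21, 1 transcript a gene, and covered 95.4% of the genes tested.

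**Figure D5:**
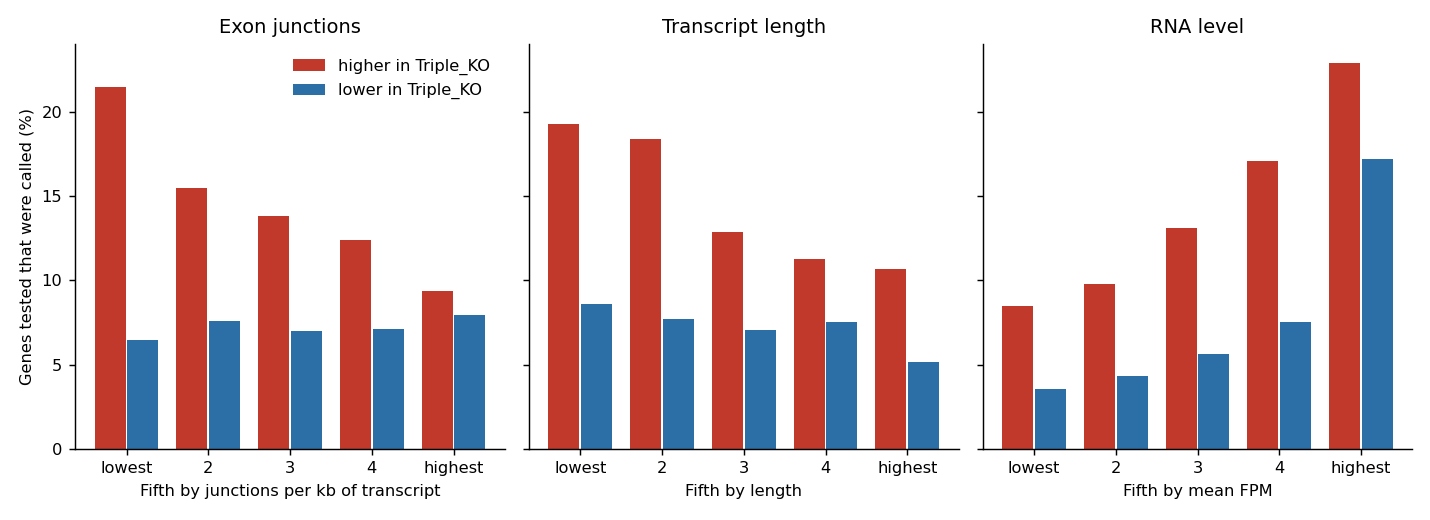
Share of tested genes called higher (red) or lower (blue) in Triple_KO (y axis, %), in 5 equal groups of genes by exon junctions per kb, by transcript length and by mean level. The share called higher is 21.5% where junctions are sparsest and 9.40% where they are densest, and it is 8.51% in the lowest and 22.9% in the highest group by level.

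By chromosome, median log2 changes lay between 0.0012 (chromosome 17) and 0.16 (chromosome 18), against 0.07 over all genes. The X chromosome had a median of 0.13, with 38 of 263 genes higher (14.4%, near the 14.3% of all genes) and 13 lower (4.94%, against 7.65%). On chromosome 18 the median was 0.026 in replicate A and 0.17 in replicate B.

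The single knockouts were measured beside Triple_KO in the same fit and share its WT libraries, so that likeness between genotypes was not computed and differences between them were not tested. Dppa3, with a change of 2.55 in Triple_KO, gave 1.13 in Ythdf1_KO, 1.86 in Ythdf2_KO and 0.67 in Ythdf3_KO. Igf2, at 2.31 in Triple_KO, gave 1.70 in Ythdf1_KO, 1.90 in Ythdf2_KO and 0.29 in Ythdf3_KO. Tfap2c, at 2.39, gave 0.79 in Ythdf1_KO, 1.11 in Ythdf2_KO and 0.69 in Ythdf3_KO. Against WT, these 3 passed the same threshold in Ythdf1_KO and Ythdf2_KO. In Ythdf3_KO none did (limma, adjusted p = 0.103 for Dppa3, 0.555 for Igf2 and 0.0575 for Tfap2c). Rhox5, at 2.49 in Triple_KO, gave 0.43 in Ythdf1_KO, 0.77 in Ythdf2_KO and 0.15 in Ythdf3_KO, and Fkbp6, at 2.35, gave -0.15 in Ythdf1_KO, -0.10 in Ythdf2_KO and -0.41 in Ythdf3_KO. Of the single knockouts, Rhox5 passed only in Ythdf2_KO (limma, adjusted p = 0.0123) and Fkbp6 in none. Among the falls, Dancr, at -2.52 in Triple_KO, gave -0.36 in Ythdf1_KO, -1.94 in Ythdf2_KO and -0.55 in Ythdf3_KO, and Rpph1, at -1.67, gave -0.30 in Ythdf1_KO, -1.50 in Ythdf2_KO and -0.44 in Ythdf3_KO. Islr2, at -1.90, gave -0.96 in Ythdf1_KO, -1.13 in Ythdf2_KO and -0.86 in Ythdf3_KO, and Klf5, at -1.24, gave -0.58 in Ythdf1_KO, -0.67 in Ythdf2_KO and -0.61 in Ythdf3_KO. Krt18 rose in Triple_KO (1.53) and gave 0.91 in Ythdf1_KO, 0.80 in Ythdf2_KO and -0.53 in Ythdf3_KO.

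The libraries of 4 h and 8 h of actinomycin D took no part in these calls and hold the same genotypes. All 15 of the largest rises had both Triple_KO replicates above both WT replicates at 4 h and at 8 h. Over all genes tested that held for 46.3% at 4 h and 59.7% at 8 h. At 8 h the listed genes held 39.5 to 43.0% of the reads in Triple_KO libraries, against 32.9 to 33.4% in WT libraries, and the part of that share in these counts was not tested. Of the 1241 genes called higher at 0 h, 1090 (87.8%) did so at 4 h and 1159 (93.4%) at 8 h. Of the 665 called lower at 0 h, 346 (52.0%) had both replicates below WT at 4 h and 239 (35.9%) at 8 h, against 12.1% and 6.77% of all genes. Dppa3 averaged 37.95 FPM in Triple_KO and 2.49 FPM in WT at 4 h, and 28.6 FPM in Triple_KO and 2.33 FPM in WT at 8 h. Dancr averaged 6.29 FPM in Triple_KO and 9.61 FPM in WT at 4 h, and 8.09 FPM in Triple_KO and 16.8 FPM in WT at 8 h. Ythdf2 averaged 66.8 FPM in Triple_KO and 14.5 FPM in WT at 4 h, and 45.3 FPM in Triple_KO and 10.8 FPM in WT at 8 h.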

How the data were processed

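Poly(A) RNA of mouse embryonic stem cells was sequenced near the 3′ end in 50 libraries, of which the 8 of Triple_KO and WT at 0 h are compared here. The deposited values are FPM per RefSeq transcript, the same unit as RPM, scaled by the authors to the library total. CASAVA 1.8.2, Bowtie2 and the build mm10 are named, per the submitters' processing notes. Strand use, multi-mapping and the annotation version are not given in the sources used here. Across all libraries 100% of values were whole reads within 0.1 read, which gave library totals.

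Of 22338 transcripts, 21729 were named from RefSeq GRCm38.p6, 120 from GENCODE M21, and 489 had no name. Within a gene, 2169 identical repeats were dropped, a departure from the plain sum planned, and the distinct transcripts of 652 genes were summed, giving 19455 genes, of which 2151 share values with another gene. Duplicate libraries were averaged as log2(FPM + 1), which understates changes of low genes, and 10 replicate means (5 genotypes at 0 h, n = 2 each) were fitted with limma 3.58 (R 4.3) with a mean trend. The test took genes that reached 5 FPM in 2 or more of those means, with Benjamini-Hochberg adjustment over all of them at 0.05. Errors of log2 changes are SE, and errors of FPM are SD over libraries. Low genes carry counting error: 1 read is worth 0.482 to 0.845 FPM.

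Genes named are the readers, the 15 largest rises and falls past the threshold with replicate means apart and at least 10 FPM in a genotype, leaving out unnamed models, microRNA and small nucleolar RNA genes and pseudogenes (3 among rises, 11 among falls), and up to 3 members per direction of each list with the smallest p; others are said to be chosen later or given as context. 1 gene that the rule names is not reported here. Members and lists were chosen with earlier results of these data known, and list membership comes from general knowledge. On simulated data for 8697 genes of this comparison, 76% and 70% of changes of 1 and -1 (log2) were called, and 34% and 26% of changes of 0.5 and -0.5, with 8 false calls. Simulated libraries were drawn independently around the WT means with a fixed dispersion and no added spread between replicates. These rates thus need not hold for the measured libraries. Alternatives were other pseudocounts, filters, scalings, samples and transcripts, a replicate block, edgeR 4.0 and DESeq2 1.42 on recovered reads, and leaving out each replicate.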

Additional observations from a re-analysis of the deposited data

Results flagged for a closer look

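For the genes named, 376 groups of 4 libraries were examined for 1 library whose gap to its nearest neighbour took up more of the group's range than Dixon's 95% critical value, which chance alone exceeds in about 1 in 20 groups. 16 groups did so. Bhmt had 23.8 FPM in Triple_KO library 10d, and the other 3 lay between 14.4 and 15.9 FPM. Tfap2c had 12.3 FPM in WT library 1d, and the other 3 lay between 5.07 and 5.89 FPM. Rn4.5s had 15.2 FPM in WT library 1e, and the other 3 lay between 23.0 and 23.4 FPM. Xaf1 had 2.77 FPM in Triple_KO library 9e, and the other 3 lay between 5.78 and 6.13 FPM. Tyms had 17.8 FPM in WT library 1e, and the other 3 lay between 9.09 and 9.42 FPM. Lsm2 had 113 FPM in Triple_KO library 10d, and the other 3 lay between 134 and 137 FPM. Rex2 had 29.2 FPM in Triple_KO library 10d, and the other 3 lay between 35.6 and 36.5 FPM. Tead2 had 68.6 FPM in Triple_KO library 10d, and the other 3 lay between 60.7 and 62.0 FPM. Serpinh1 had 153 FPM in Triple_KO library 9d, and the other 3 lay between 136 and 138 FPM. Nes had 2.10 FPM in WT library 2g, and the other 3 lay between 5.55 and 5.92 FPM. Sp5 had 4.19 FPM in WT library 2g, and the other 3 lay between 0.845 and 1.23 FPM. Gadd45g had 3.70 FPM in WT library 1d, and the other 3 lay between 7.69 and 8.45 FPM. Ldhb had 54.8 FPM in WT library 2f, and the other 3 lay between 48.9 and 49.3 FPM. Epop had 412 FPM in WT library 2f, and the other 3 lay between 384 and 388 FPM. Zscan4c had 0.589 FPM in WT library 2f, and the other 3 were listed at 0. Dcn had 2.16 FPM in Triple_KO library 10d, and the other 3 were listed at 0.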

How the results depend on the processing

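Of 157 named genes called, none changed sign under any alternative. Calls of the whole comparison numbered 1906 (1241 higher, 665 lower). They numbered 869 with no level filter (594 higher, 275 lower), 559 in a fit on all times (348 higher, 211 lower) and 852 with DESeq2 (421 higher, 431 lower), and median scaling gave 1003 lower. Without 1 replicate they numbered 1129 to 1508, with 723 to 1038 higher and 406 to 498 lower. Pseudocounts of 0.5 and 5 FPM, a filter of 20 FPM, TMM scaling, only Triple_KO and WT, duplicate correlation, the highest transcript and edgeR gave counts within 1.5 times. Of the 157 genes, 104 were called with no filter, 110 on all times, 127 with DESeq2, 144 with median scaling, 150 with TMM or edgeR, and 138 to 142 without 1 replicate. Ythdf3 (-0.08) lay between -0.42 and 0.27 without 1 replicate. Pecam1 (0.04) was -0.013 with TMM and -0.046 with median scaling, -0.061 with edgeR and with DESeq2, and between -0.076 and 0.16 without 1 replicate. The cause of these shifts was not tested, apart from the fewer samples or other genes tested that some settings bring. With a replicate block 1914 genes were called (1248 higher, 666 lower). The letters A and B share only a number: deviations of Triple_KO and WT correlated at 0.0041, and the 10 pairs of genotypes lay between -0.022 and 0.024. Depth limits genes near 5 FPM, which rest on few reads.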
